A study of Mus musculus with 2 samples.

Results

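The genes described here encode the protein subunits of the mitochondrial ribosome, in mouse macrophages cultured with or without the interleukin IL-36 gamma. They were chosen by symbol: all protein-coding genes of the GENCODE M21 annotation named Mrpl or Mrps followed by a digit, with a mean of at least 10 counts over both libraries. Of 78 genes with such a symbol, 77 passed, out of 14379 genes of any kind that passed the same minimum. By symbol, 48 belong to the large and 29 to the small subunit. The cells were bone marrow derived macrophages of C57BL/6 mice, left untreated (control) or given IL-36 gamma, with 1 RNA library per group. The labels give no dose, exposure time, age or sex, and do not say how many mice were used. With 1 library per group there is no replicate check and no p-value, and every interval below is an exact 95% (Clopper-Pearson) interval that covers counting error only.

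Mitochondria carry their own ribosome, which translates the few messenger RNAs of the mitochondrial genome into core subunits of the respiratory chain. Its ribosomal RNAs come from the mitochondrial genome, while all of its proteins are encoded in the nucleus, made in the cytosol and imported. Some of these proteins have homologs in the bacterial ribosome and others are found only in mitochondria. In macrophages, the activity of the respiratory chain is known to differ between activation states.

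Gene counts totalled 17426367 without and 17267900 with IL-36 gamma. Macrophage markers were abundant in both, with 10 of 10 measured and summed levels of 29780 and 29380 CPM (counts scaled to the library's size), of which 3 had an interval wholly above a ratio of 1 and 6 wholly below. Neutrophil markers summed to 275.7 CPM in the control and 365.2 CPM with IL-36 gamma, with 9 of 10 measured and 7 above a ratio of 1. Of the lymphocyte markers 1 of 8 was measured (summed levels 22.8 and 29.2 CPM), and Cd3e, Cd3g and Ncr1 were at 0 in both libraries. The measured marker was Cd79b, above 1 with 384 and 490 counts, while Cd79a had 16 and 3 counts. Of the stromal markers 5 of 6 were measured (13.2 and 7.77 CPM), with 3 below 1, 0 above and Pdgfra at 0, and of the dendritic cell markers 0 of 6 (1.69 and 1.53 CPM), with Siglech at 0. The part of these other cell types in the results below was not tested.

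Transcripts of mitochondrial ribosomal proteins were slightly more abundant in the IL-36 gamma library, in both subunits alike. The 77 genes together had 36920 counts untreated and 40568 treated, a ratio after scaling of 1.15 (1.13 to 1.16). Their summed level went from 2085 to 2387 CPM. The median log2 ratio was 0.19 (interquartile range 0.08 to 0.28), or 1.14-fold, against 0.00 (-0.19 to 0.17) over all genes tested. A ratio over 1 was seen in 70 of the 77 genes and a ratio under 1 in 7. Over all genes tested, 7202 of 14379 had a ratio over 1. Of 716 protein-coding genes within the interquartile ranges of the members' mean counts and transcript lengths, 521 did. In bulk RNA, fewer cells of a type and less RNA per cell cannot be told apart.

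A gene is called above 1 or below 1 here when its whole interval lies on that side of equality. Of the 77 genes, 39 (50.6%) were above 1 and 1 (1.30%) was below, while the intervals of the other 37 included 1. Over all genes tested, 19.1% were above 1 and 17.4% below. Over protein-coding genes alone these shares were 21.4% and 18.1%. Of the 77, 0 had an interval wholly above 2-fold, against 0.0765% of all genes tested, and 0 had an interval wholly below 0.5, against 0.0904% (0.167% in either direction). Many of these calls were near the bound: with scaling by total counts 28 members were above 1, all of them among the 39. That scaling lowered the ratios of all genes, with a median log2 ratio of -0.05 over all genes tested and 0.14 over the members. The exons of 27 members overlap exons of a gene on the other strand, and with the strand setting of the counting unknown their counts may be shared with that gene. The 50 members without such overlap had a median of 0.18, with 24 above 1 and 1 below.

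**Figure D1:**
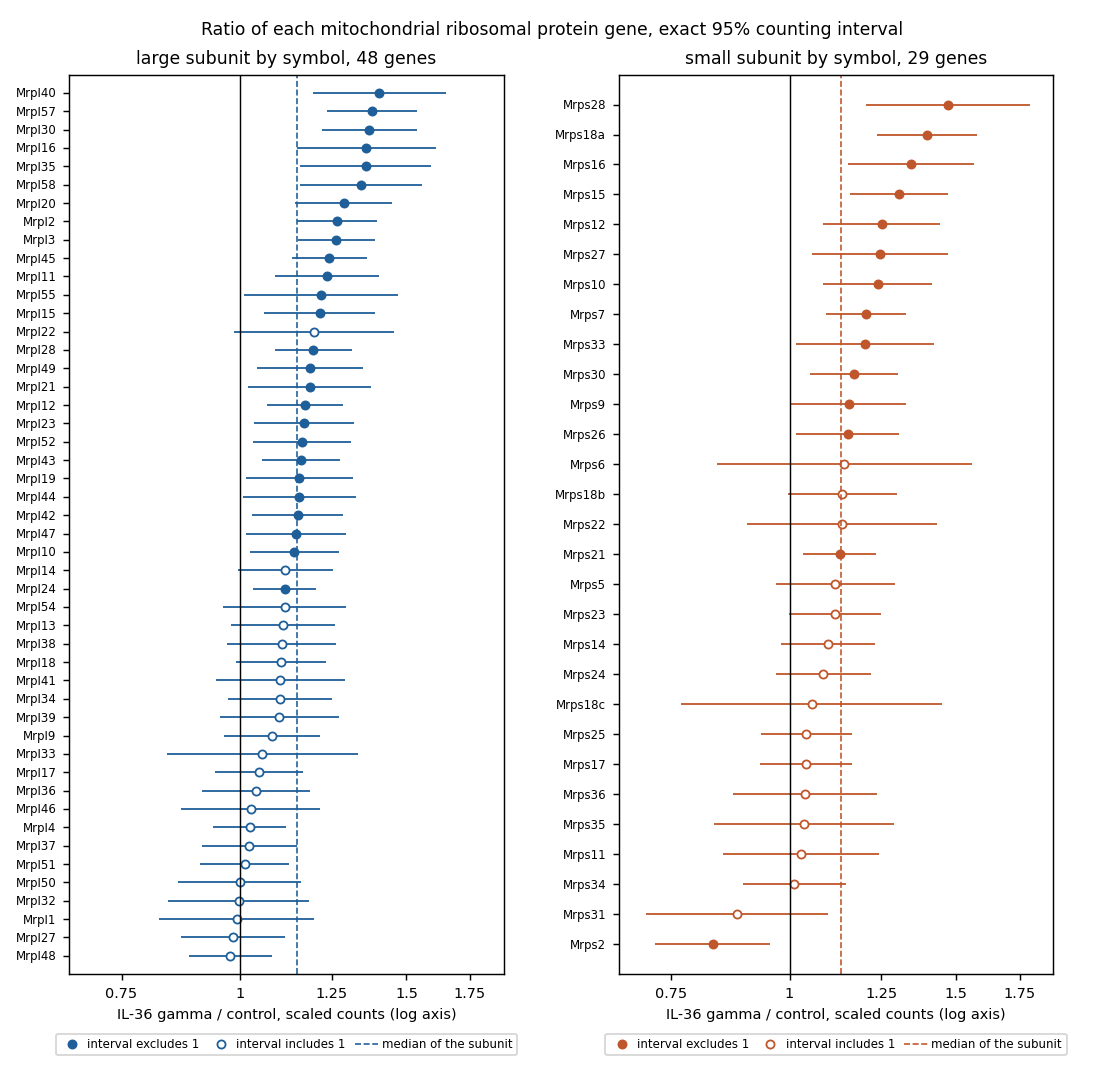
Ratio of scaled counts, IL-36 gamma over control, for each of the 77 genes (log axis, 48 large subunit genes left, 29 small subunit genes right), with exact 95% counting intervals and the subunit medians as dashed lines. Filled points have an interval that excludes 1; 39 lie above 1 and Mrps2 alone lies below.

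Upstream sequences were searched because genes of this kind are known targets of the factors NRF1 and GABP, whose sites lie close to the start. RefSeq upstream sequences (GRCm38.p6, 250 bases before the start) were matched for 68 of the 77 members and for 9488 protein-coding genes tested in all. The letters searched on both strands were CCGGAAG for GABPA, CACGTG for the E-box that MYC binds and GGGCGG for the GC box. The NRF1 motif was searched as GCGCA and GCGC with any 1 base between them, and the YY1 core motif as 1 fixed pattern. None of the patterns contains another, but matches may overlap. The NRF1 letters were found upstream of 10 members (14.7%) and of 9.48% of all these genes. GABPA letters were found upstream of 17 members (25%) against 16.2%, E-box letters upstream of 5 (7.35%) against 9.91%, and GC box letters upstream of 33 (48.5%) against 63.1%. YY1 letters were found upstream of 1 member (1.47%) against 0.833%. Members with NRF1 letters had a median log2 ratio of 0.19 and those without 0.19, and for GABPA these were 0.20 and 0.19. For the GC box they were 0.18 and 0.21, and for the E-box, with 5 members, 0.08 (2 above 1) and 0.20 (34 of 63 above 1). A match of letters is a description of the sequence and not a measured binding site.

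The upstream sequences of the members with the highest lower bounds, Mrps18a and Mrpl57, and with the lowest upper bounds, Mrpl48 and Mrpl27, among those with a match are shown to compare both ends of the range. Capitals mark the matched letters: GABPA in Mrps18a and Mrpl27, NRF1 in Mrpl57 and the GC box in Mrpl48. Mrpl48 has 4 upstream entries, and GABPA letters were found in an entry not shown. Mrpl57 also has GC box letters, outside the bases shown. For Mrpl57 and Mrpl27, where more than 30 of the 250 bases lie in annotated exons, only 30 bases around the match are given. The positions are chr17:46110754-46111003, plus strand, for Mrps18a and chr14:57826172-57826201, plus strand, for Mrpl57. They are chr7:100608302-100608551, minus strand, for Mrpl48 and chr11:94653724-94653753, plus strand, for Mrpl27.
Mrps18a: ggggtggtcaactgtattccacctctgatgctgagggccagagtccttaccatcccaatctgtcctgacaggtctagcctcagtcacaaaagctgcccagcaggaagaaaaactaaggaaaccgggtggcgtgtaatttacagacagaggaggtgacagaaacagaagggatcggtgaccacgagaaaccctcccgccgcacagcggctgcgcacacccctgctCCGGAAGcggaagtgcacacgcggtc
Mrpl57: tttgaatcctGCGCAGGCGCagaaggcgtc
Mrpl48: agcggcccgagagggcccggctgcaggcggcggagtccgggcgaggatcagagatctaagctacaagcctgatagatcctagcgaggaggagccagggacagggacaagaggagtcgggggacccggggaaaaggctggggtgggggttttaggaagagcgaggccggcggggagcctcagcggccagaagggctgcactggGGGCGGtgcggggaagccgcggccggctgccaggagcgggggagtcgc
Mrpl27: tgtccgcaagacCCGGAAGtagatctatcc
GABPA letters thus stand upstream of a gene at a ratio of 1.40 and of genes at 0.984 (Mrpl27) and 0.977 (Mrpl48).

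Gene length moved with this result. Mitochondrial ribosomal proteins are small, and the principal transcripts of these genes had a median length of 1316 bases, against 2953 bases for all protein-coding genes tested. Short transcripts as a whole had higher ratios. With protein-coding genes cut into 10 classes of equal size by this length, the class of the shortest had a median log2 ratio of 0.17 with 43.5% above 1, and the class of the longest a median of -0.20 with 4.02% above 1. Whether length itself had a part in the shift of the mitoribosome genes was not tested.

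Set beside genes of their own length, the shorter members stood close to the rest and the longer members stood higher. In the 2 shortest classes, which end at 1676 bases, 48 members had a median of 0.18, and 23 of them (0 below) were above 1. The 2342 other protein-coding genes of these classes had a median of 0.15, with 39.2% above 1. In the other 8 classes, 29 members had a median of 0.20, with 16 above 1 and 1 below, against a median of -0.03 and 16.8% above 1 for 9528 other genes. In all, 56 of 77 members lay over the median of their own class. Protein-coding genes within the interquartile ranges of both the members' mean counts and their transcript lengths numbered 716. These had a median of 0.09, with 28.6% above 1 and 7.68% below.

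With the trend of log2 ratio on exon length removed, the members' median was 0.10, with 26 above 1 and 2 below, against 16.2% and 16.4% of all genes. With the trend on principal transcript length removed instead, the median was 0.08, with 24 above 1 and 2 below, against 18.1% and 14.4%. Of the 39 members called above 1 with no trend removed, 24 stayed above 1 in the first case and 21 in the second. Not every lost call is named below. Among the members themselves, log2 ratio and principal transcript length were nearly unrelated (Pearson r = -0.10, Spearman rho = -0.09, n = 77 genes of the same 2 libraries).

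**Figure D2:**
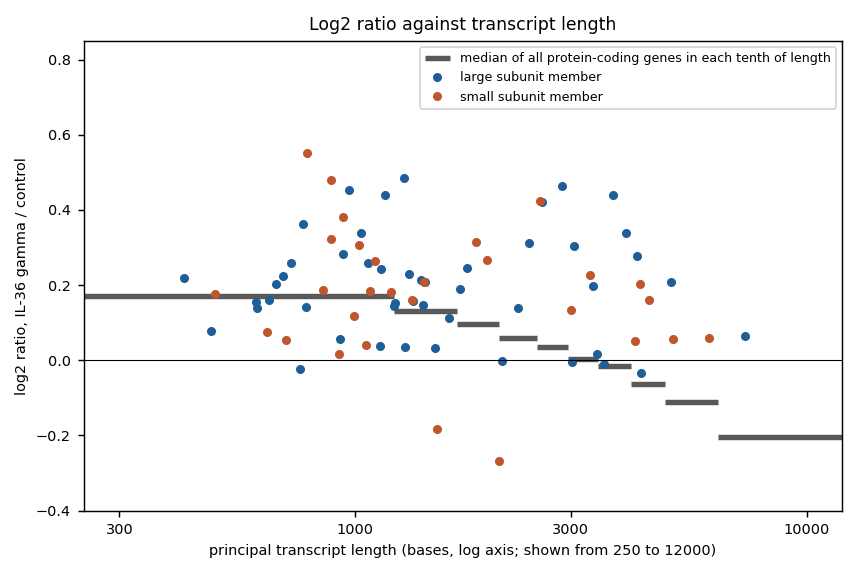
Log2 ratio, IL-36 gamma over control, of each member against the length of its principal transcript (log axis), with the median of all protein-coding genes in each of 10 length classes as grey bars. The bars fall from 0.17 in the shortest to -0.20 in the longest class; 56 of 77 members lie over the bar of their own class.

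The large and the small subunit did not differ beyond counting error. The 48 large subunit genes went from 24940 to 27478 counts, a pooled ratio of 1.15 (1.13 to 1.17), and the 29 small subunit genes from 11980 to 13090 counts, a pooled ratio of 1.14 (1.11 to 1.17). The ratio of large to small subunit counts was thus 1.01 times that of the control (0.978 to 1.04). The median log2 ratio was 0.20 (interquartile range 0.10 to 0.28) for the large and 0.18 (0.06 to 0.27) for the small subunit. Above 1 were 26 large subunit genes (54.2%) and 13 small subunit genes (44.8%), and below 1 were 0 and 1. The difference of the medians, 0.02, turned to -0.04 with the trend on exon length removed, so no order of the subunits can be read from it.

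Symbols and structure disagree for 3 of the genes. Mrps18a and Mrps30 sit in the large subunit of the mammalian mitoribosome in spite of their names, and Mrps36 is now known as a component of the 2-oxoglutarate dehydrogenase complex. Placed by structure, 50 large subunit genes had a median of 0.21, with 28 above 1, and 26 small subunit genes a median of 0.18, with 11 above 1 and 1 below. The ratio of pooled ratios, large over small, was 1.02 (0.991 to 1.06). Mrps36 itself had 261 control counts against 260 treated, a ratio of 1.04 (0.871 to 1.24).

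Proteins counted as having a bacterial homolog and those counted as mitochondrion specific had medians that differed by 0.0106 over all members. Mrps18a and Mrps18b, though related to bacterial S18, were counted as mitochondrion specific. The placing of Mrps18b was not varied. The 46 genes with a bacterial homolog had a median of 0.19, with 25 above 1 and 1 below. The 30 mitochondrion-specific genes had a median of 0.18, with 14 above 1 and 0 below. Among the latter, the 10 small subunit genes had 3 above 1 and a pooled ratio of 1.097 (1.05 to 1.15), and the 20 large subunit genes had 11 above 1 and a pooled ratio of 1.15 (1.12 to 1.19), intervals that overlap. Over the 50 members without opposite-strand overlap the difference of medians was 0.0663, with bacterial homologs higher, and 0.103 with the exon length trend also removed.

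In the factor-binding stalk of the large subunit, where elongation factors dock, all measured genes were above 1. Mrpl12, the stalk protein that contacts the factors, had 865 counts without and 973 with the cytokine, a ratio of 1.17 (1.07 to 1.29). Mrpl10, its anchor, had 642 and 703 counts, a ratio of 1.14 (1.02 to 1.27). Mrpl11, at the base, had 461 and 547 counts, a ratio of 1.24 (1.09 to 1.40). The intervals of these 3 genes overlap, so their order is not resolved. Mrpl10 had an interval that includes 1 with scaling by total counts (1.105, 0.992 to 1.23), and both Mrpl10 and Mrpl12 had one with either length trend removed. Mrpl53, also near the stalk base, is the 1 gene that failed the count minimum, with 0 counts in both libraries. Of its 790 exonic bases (chromosome 6, 83109040 to 83109939, mm10), 695 lie inside exons of Gm42688 on the same strand. That gene had 19 counts in each library. Reads ambiguous between genes were kept in a row that names no gene, so 0 counts for Mrpl53 need not mean that its transcript was absent.

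Around the peptide exit tunnel, whose mitochondrial proteins face the inner membrane, 5 of 7 genes were above 1 and 0 below. Mrpl45, which lies at the exit, went from 864 to 1030 counts (ratio 1.24, 1.13 to 1.36). Mrpl23 went from 510 to 572 (1.17, 1.04 to 1.32) and Mrpl24, the gene with the most counts of all 77, from 1256 to 1344 (1.11, 1.03 to 1.21). The group was even, with log2 ratios from 0.14 to 0.31. Mrpl44 and Mrpl47 were the remaining genes above 1. With scaling by total counts Mrpl24 (0.999 to 1.17), Mrpl44 (0.976 to 1.28) and Mrpl47 (0.984 to 1.254) came to include 1, which left 2 of 7. Mrpl24 and Mrpl44 also lost the call with either length trend removed, and Mrpl23 with the trend on principal transcript length removed. Mrpl22 (201 and 231 counts, ratio 1.20, 0.987 to 1.45) and Mrpl39 (373 and 394, ratio 1.101, 0.953 to 1.27) had intervals that include 1.

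In the central protuberance, the part of the large subunit that meets the small subunit's head, the genes were spread apart. Mrpl40 (chromosome 16, 18872018 to 18876862) had 268 counts untreated and 361 treated, a ratio of 1.40 (1.20 to 1.65). Mrpl58, a protein with peptidyl-tRNA hydrolase activity, had 323 and 416 counts, a ratio of 1.34 (1.16 to 1.56). Mrpl48, by contrast, had 788 and 739 counts, a ratio of 0.977 (0.883 to 1.08), and its interval lies wholly under those of Mrpl40 and Mrpl58. Exons of Rab6a on the other strand overlap 708 of the exonic bases of Mrpl48. Mrpl38 (434 and 461 counts, ratio 1.11) and Mrpl46 (283 and 279, ratio 1.03) had intervals that include 1.

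Among conserved proteins of the large subunit core, which hold the peptidyl transferase centre, 4 of 8 genes were above 1. Mrpl16 went from 249 to 325 counts (ratio 1.36, 1.15 to 1.61). Mrpl20 went from 523 to 646 (1.29, 1.15 to 1.45), Mrpl2 from 750 to 911 (1.27, 1.15 to 1.40) and Mrpl3 from 798 to 969 (1.27, 1.15 to 1.39). The other 4 had intervals that include 1. Mrpl14 had a ratio of 1.12 (0.995 to 1.254), Mrpl13 1.11 (0.980 to 1.26), Mrpl4 1.02 (1006 and 989 counts, 0.937 to 1.12) and Mrpl27 0.984 (517 and 488 counts, 0.867 to 1.11).

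Of the other large subunit genes, Mrpl57 and Mrpl30 were highest. Mrpl57 (chromosome 14, 57826234 to 57829296), a mitochondrion-specific subunit, had 572 control counts against 757 treated, a ratio of 1.38 (1.24 to 1.54). Mrpl30 (chromosome 1, 37890477 to 37898535), a conserved subunit, had 519 and 682 counts, a ratio of 1.37 (1.22 to 1.54). Mrpl35 had 277 and 361 counts, a ratio of 1.36 (1.16 to 1.59). These intervals stand clear of equality. Mrpl15, Mrpl19, Mrpl21, Mrpl28, Mrpl42, Mrpl43, Mrpl49, Mrpl52 and Mrpl55 were also above 1, with ratios from 1.15 to 1.22, though Mrpl52 turned to 0.995 with the trend on principal transcript length removed. With scaling by total counts the intervals of Mrpl19, Mrpl21, Mrpl42 and Mrpl55 included 1, with lower bounds from 0.979 to 0.998. With the exon length trend removed those of Mrpl21, Mrpl28, Mrpl43, Mrpl49, Mrpl52 and Mrpl55 did. Nearest to or under equality were Mrpl1 (233 and 222 counts, ratio 0.993, 0.822 to 1.20), Mrpl32 (280 and 268, 0.997, 0.840 to 1.18) and Mrpl50 (366 and 351, 0.999, 0.861 to 1.16). The rest, which were Mrpl9, Mrpl17, Mrpl18, Mrpl33, Mrpl34, Mrpl36, Mrpl37, Mrpl41, Mrpl51 and Mrpl54, had ratios from 1.01 to 1.12 with intervals that include 1.

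The small subunit held both ends of the range. Mrps28 (chromosome 3, 8802146 to 8923918), counted as the relative of bacterial S1, had the highest ratio of the 77 genes. It went from 173 to 244 counts, 1.47 times (1.21 to 1.796). Mrps2 (chromosome 2, 28468066 to 28471178), the homolog of bacterial S2, was the 1 gene below 1 and had the lowest ratio. It went from 457 to 364 counts (ratio 0.830, 0.721 to 0.955). Its interval lies wholly under the interval of the pooled small subunit. Neither gene has exonic overlap with another gene in the annotation.

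Near the path of the messenger RNA, Mrps2 stood against the other genes. Mrps12, which lines the decoding centre, had 363 counts without and 436 with the cytokine, a ratio of 1.252 (1.09 to 1.44). Mrps5 (371 and 398 counts, ratio 1.12, 0.968 to 1.29) and Mrps24 (583 and 607, ratio 1.08, 0.967 to 1.22) had intervals that include 1. Mrps12 lost its call with either length trend removed. With Mrps2 counted in, the 4 genes pooled to 1.06 (0.992 to 1.13).

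In the head of the small subunit, 3 of 6 genes were above 1. Mrps10 went from 418 to 497 counts (ratio 1.24, 1.09 to 1.42), Mrps7 from 780 to 901 (1.20, 1.09 to 1.33) and Mrps9 from 387 to 429 (1.15, 1.004 to 1.33). Mrps9 lost its call with scaling by total counts (0.973 to 1.29), Mrps7 with the exon length trend removed, and Mrps9 and Mrps10 with the trend on principal transcript length removed. Mrps14 had a ratio of 1.098 (0.980 to 1.23) and Mrps35 1.04 (169 and 168 counts, 0.832 to 1.29). Mrps31 had 180 and 152 counts, a ratio of 0.880 (0.704 to 1.098), the second lowest of the 77, with an interval that includes 1.

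In the platform and body, 4 of 8 genes were above 1 and 0 below. Mrps16 had 303 counts untreated and 391 treated, a ratio of 1.34 (1.15 to 1.57). Mrps15 had 508 and 636 counts, a ratio of 1.31 (1.16 to 1.47). Mrps27, a pentatricopeptide repeat protein, had 266 and 318 counts, a ratio of 1.246 (1.06 to 1.47), and Mrps21 had 949 and 1029 counts, a ratio of 1.13 (1.03 to 1.24). Mrps27 lost its call with either length trend removed. The value of Mrps21, whose principal transcript has 488 bases, turned to 0.982 (0.898 to 1.07) with the length trend removed. The remaining genes of this group lay at ratios from 1.01 to 1.14. They include Mrps6, which had 83 and 91 counts and a wide interval (0.839 to 1.56). Outside these groups, Mrps26 (ratio 1.15), Mrps30 (1.17) and Mrps33 (1.20) were above 1, while Mrps22, Mrps23 and Mrps25 were not. With scaling by total counts Mrps26 (0.985 to 1.26) and Mrps33 (0.985 to 1.38) came to include 1.

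The S18 proteins form a family of 3 paralogs, which are related to bacterial S18 and take different places in the ribosome. Mrps18a (chromosome 17, 46110986 to 46128910), the paralog of the large subunit, had 468 control counts against 627 treated, a ratio of 1.40 (1.24 to 1.58). Its lower bound was the highest of the 77 genes. Mrps18b had 426 and 465 counts, a ratio of 1.14 (0.995 to 1.30), and Mrps18c 82 and 83, a ratio of 1.06 (0.768 to 1.45). The intervals of all 3 overlap. Counts of Mrps18b may include Gm16279, which overlaps 638 of its exonic bases on the other strand. Per length, as RPKM (CPM per kilobase of the principal transcript), Mrps18a had 29.9 in the control, Mrps18b 22.3 and Mrps18c 7.26. In the IL-36 gamma library these levels were 41.7, 25.4 and 7.66.

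Levels per length differed far more between genes than between the libraries. In the control they ran from 2.29 RPKM for Mrps35 to 109.8 RPKM for Mrps21, a 47.9-fold range, with a median of 15.7. With IL-36 gamma they ran from 2.38 to 124.1 RPKM for the same genes, with a median of 18.5. The proteins assemble in fixed proportions, while their transcripts did not stand at equal levels. In the control, Mrps21 was followed by Mrpl52 (72.0 RPKM), Mrpl24 (53.0) and Mrpl42 (51.9), and the lowest after Mrps35 were Mrpl1 (3.70), Mrpl35 (4.20) and Mrps5 (4.68). The order was nearly the same in both libraries, with 9 of the 10 highest and 9 of the 10 lowest shared (Pearson r of log2 RPKM = 0.991 over 77 genes). The median level of large subunit genes was 17.6 RPKM in the control and that of small subunit genes 12.4. With IL-36 gamma these were 19.5 and 12.8. These levels depend on the annotated length of each principal transcript, which was not measured in these cells.

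**Figure D3:**
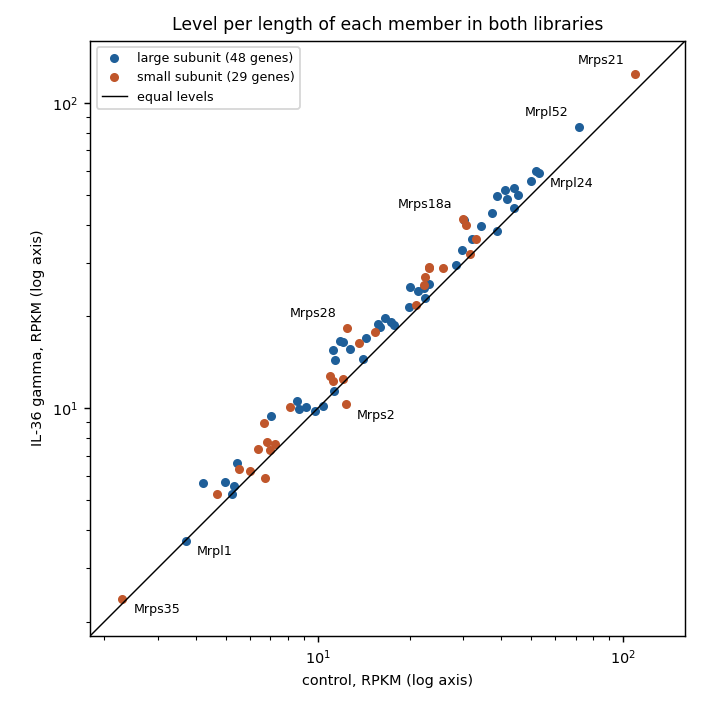
Level of each member in RPKM (CPM per kilobase of principal transcript) in the IL-36 gamma library against the control, both on log axes, by subunit. The points run from 2.29 to 109.8 RPKM in the control and most lie slightly over the line of equal levels. Of the 7 members under it, Mrps2 and Mrps31 lie farthest from it.

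The spread among members was partly that of counting. The standard deviation of log2 ratios over the 77 genes was 0.154, where counting error alone would give 0.106. Over the 716 protein-coding genes of like counts and lengths it was 0.205, against 0.0971 from counting error. No test was made of this difference. The cytosolic ribosomal proteins, which are counted far more deeply, had a standard deviation of 0.0726 with 0.0459 from counting error.

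Mitoribosome subunits that carry other symbols were mostly higher as well. Chchd1 had 430 counts without and 552 with the cytokine, a ratio of 1.34 (1.18 to 1.52). Aurkaip1 had 1029 and 1186 (1.20, 1.104 to 1.31), Dap3 586 and 670 (1.19, 1.06 to 1.33) and Gadd45gip1 692 and 767 (1.16, 1.04 to 1.28). These 4 of 5 were above 1. Ptcd3, a pentatricopeptide repeat subunit, had 325 and 271 counts, a ratio of 0.869 (0.737 to 1.02).

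Both ribosomal RNAs of the mitochondrion were above 1 and its messenger RNAs were not. The 12S RNA mt-Rnr1 had 2621 counts untreated and 3771 treated, a ratio of 1.499 (1.43 to 1.58). The 16S RNA mt-Rnr2 had 3144 and 3890 counts, a ratio of 1.29 (1.23 to 1.35). Counts of these RNAs depend on how ribosomal RNA was removed or messenger RNA selected, which is not given in the sources used here. Of 11 measured mitochondrial messenger RNAs, 0 were above 1 and 5 below, with a pooled ratio of 0.880 (0.874 to 0.885). The respiratory chain subunit genes mt-Nd5 (14054 and 9263 counts, ratio 0.687) and mt-Cytb (15452 and 12151, ratio 0.819) were the lowest of these 5. The pooled ratio rests mainly on mt-Co1 (ratio 0.888), which had 145671 of the 211532 control counts. Well-counted mt-Nd1 (16557 and 15993 counts, ratio 1.007) and mt-Nd2 (7761 and 7427, ratio 0.997) had intervals that include 1. The other messenger RNAs with such intervals had at most 164 counts per library.

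Genes for the factors that work with the mitoribosome showed little of the shift. The 16 mitochondrial translation factors had a median of 0.04, with 4 above 1 (25%) and 0 below. Over all genes tested these shares were 19.1% and 17.4%. Tufm, the elongation factor that brings transfer RNA, went from 1156 to 1344 counts (ratio 1.21, 1.12 to 1.31), Slirp, which stabilises mitochondrial messenger RNA, from 1302 to 1504 (1.20, 1.12 to 1.30), and Letm1 from 853 to 962 (1.18, 1.07 to 1.29). Taco1 was the other gene above 1. Exons on the other strand overlap 3036 of the 3104 exonic bases of Slirp, so its counts may be shared. The lowest upper bounds were those of Guf1 (469 and 395 counts, 0.878, 0.766 to 1.005), the recycling factor gene Mrrf (245 and 195, 0.829, 0.684 to 1.005) and Lrpprc, the partner of Slirp (743 and 672, 0.942, 0.848 to 1.05).

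The 24 genes of mitoribosome assembly and ribosomal RNA modification had a median of 0.01, with 4 above 1 (16.7%) and 1 below (4.17%). Of all genes tested, 19.1% were above 1 and 17.4% below. Malsu1, an assembly factor of the large subunit, had 258 and 329 counts, a ratio of 1.33 (1.13 to 1.57). Ngrn (214 and 268 counts, ratio 1.30, 1.09 to 1.57) and the GTPase gene Mtg1 (188 and 235, 1.30, 1.07 to 1.59) followed, and Ddx28 was the last above 1. Mettl17, needed for assembly of the small subunit, was below 1, with 236 and 174 counts and a ratio of 0.768 (0.628 to 0.939). The principal transcripts of both lists are longer than those of the ribosomal proteins, with medians of 2662 and 1858 bases.

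Genes of the transcription machinery that is known to act on mitoribosome genes, or on the mitochondrial genome, mostly had intervals that include 1. Of 9 measured regulators, Esrra, a nuclear receptor gene, was above 1 with 1758 and 2156 counts (ratio 1.28, 1.20 to 1.36). Gabpb2 was below 1 with 997 and 795 counts (0.831, 0.756 to 0.913). Nrf1 (388 and 371 counts, 0.996), Gabpa (653 and 637, 1.02), Yy1 (2238 and 2227, 1.04), Myc (554 and 521, 0.980) and Gabpb1 (267 and 247, 0.964) had intervals that include 1. So did Pprc1 (1074 and 956, 0.928) and Ppargc1b (65 and 49, 0.785), while the coactivator gene Ppargc1a had 0 counts in both libraries. A count of 0 allows up to 0.169 CPM in the control and 0.177 CPM with IL-36 gamma, the levels of 3 counts. Of 6 measured genes of mitochondrial transcription, 0 were above and 0 below 1. Their median log2 ratio was -0.06 (interquartile range -0.39 to 0.10). Tfam (ratio 1.11) and Polrmt (1.08) were highest. Tfb2m (210 and 174 counts, 0.863), Mterf1a (42 and 29, 0.720, 0.432 to 1.18) and Mterf1b (22 and 12, 0.568, 0.256 to 1.20) were lowest. The intervals of Mterf1a and Mterf1b are wide because their counts are few.

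Ratios over 1 were also common among genes of the respiratory chain (79 of 81), the cytosolic ribosome (77 of 77) and mitochondrial protein import (18 of 24). Over all genes tested, 7202 of 14379 had a ratio over 1. Among the protein-coding genes with counts and lengths like those of the members, 521 of 716 did, a share near that of protein import. The nuclear-encoded respiratory chain genes had a median of 0.23, with 69 of 81 above 1 (85.2%) and 1 below. The cytosolic ribosomal proteins had a median of 0.27, with 74 of 77 above 1 (96.1%) and 0 below. Genes of mitochondrial protein import had a median of 0.15, with 11 of 24 above 1 (45.8%) and 0 below. The members' median of 0.19 lies between these. The shares are not comparable as such, since cytosolic ribosomal protein genes had a median mean count of 8306 and respiratory chain genes of 1144, against 500 for the members, and deeper counts give narrower intervals. Their principal transcripts are short too, with medians of 878 bases for the cytosolic ribosomal and 838 bases for the respiratory chain genes.

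**Figure D4:**
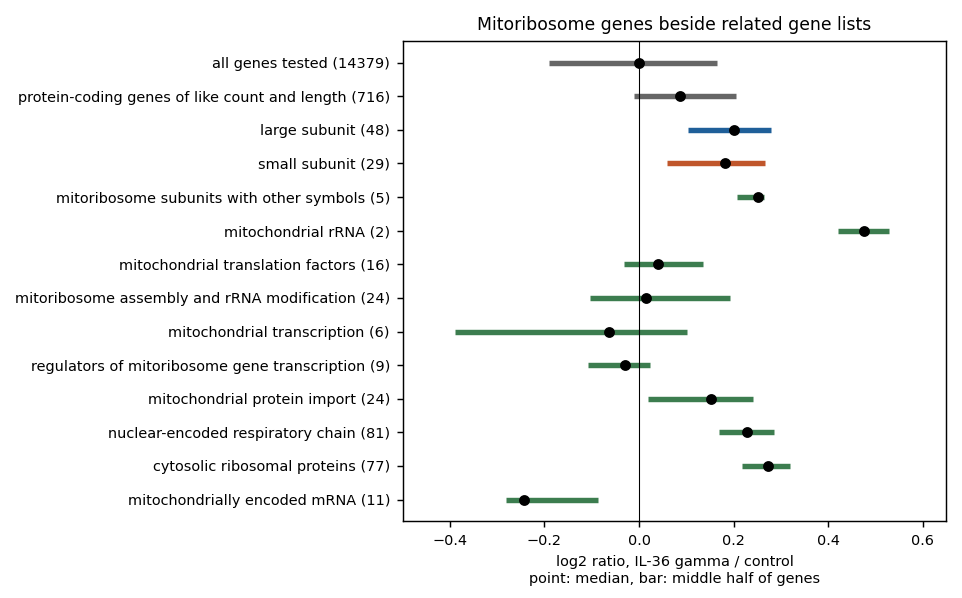
Median log2 ratio (points) and interquartile range (bars), IL-36 gamma over control, for both mitoribosome subunits and related gene lists, with the number of measured genes in brackets. Large (0.20) and small subunit (0.18) lie between mitochondrial protein import (0.15) and the respiratory chain (0.23), translation factors and assembly genes lie near 0, and mitochondrial messenger RNAs lie at -0.24.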

How the data were processed

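Total RNA of bone marrow derived macrophages was taken with Trizol, per the labels' protocols, and 1 library per group was sequenced. The deposited values are raw counts per gene, made by the authors, with no normalization. STAR 2.5.0a and HTSeq are among the tools in the submitters' processing notes, beside Trim Galore 0.6.1, FastQC 0.11.8 and the build mm10. For HTSeq, strand setting and annotation release are not given in these sources. The 5 rows that name no gene held 55.6% and 55.1% of all counts and were left out.

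Symbols, positions and lengths came from GENCODE M21 (54409 of 54446 gene IDs). Level per length used the longest transcript tagged as APPRIS principal. Counts were scaled with TMM factors (1.02 and 0.984) from edgeR 4.0.16 in R 4.3.3 over genes averaging 10 or more counts. Log2 ratios had a prior count of 2. No count test was run, as groups of 1 library leave no residual degrees of freedom. The interval was tested on simulated data. Lowess trends had a span of 0.3. Python 3.11.15, scipy 1.17.1 and statsmodels 0.14.6 were used.

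Members, lists and roles in the ribosome were chosen with earlier results of these data known. Every member may be named; counts and intervals are given for role groups and for the members with the highest lower or lowest upper bounds, and of the other lists for at most 3 genes at each end. The alternatives comprised scaling by total counts, DESeq2 1.42.0 size factors or the upper quartile, count filters, trends on length, expression and GC content, a 99% interval, a prior count of 0.5, means, subunits by structure, a 1.5-fold bound and members without opposite-strand overlap. A trend on principal transcript length, and the exon length trend with that exclusion, were chosen after seeing the data, as were the split into 2 shortest and 8 other length classes and the placing of Mrps18a, by its structural name, among the mitochondrion-specific proteins. One of the marker lists is not reported here.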

Additional observations from a re-analysis of the deposited data

How the results depend on the processing

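The 12 results on gene groups stayed within 1.5 times (counts), a log2 difference of 0.05 (medians) or the counting interval (pooled ratios) under DESeq2 size factors, upper quartile scaling, both count filters and the trends on expression and GC content. So did those to which the other settings apply: 3 for the 99% interval, 7 each for the smaller prior count and for means, 4 for subunits by structure and 1 for the 1.5-fold bound. With total counts the pooled ratio of all members was 1.11 and 28 members were above 1, while the median log2 ratio over all genes tested was -0.0454. With the exon length trend removed the median was 0.0975 (large subunit 0.0715, small 0.116, difference -0.0446), the pooled ratio 1.08, and 2 members were below 1. With the trend on principal transcript length removed the median was 0.0846 (large 0.0746, small 0.114, difference -0.0391), the pooled ratio 1.07, 24 members were above 1 and 2 below, and the assembly genes had a median of -0.0501. The 50 members without opposite-strand overlap had 24 above 1, and bacterial homologs exceeded mitochondrion-specific genes by 0.0663, against 0.0106 over all members (0.0163 with Mrps18a as a bacterial homolog). With the exon length trend also removed these were 19 and 0.103, with medians of 0.113 (large 0.0975, small 0.115) and a pooled ratio of 1.09. Mrps21 turned under 1 with the exon length (0.982) and the principal length trend (0.974) removed, and Mrpl52 with the latter (0.995). Fewer members are counted where overlapped members are left out; for the other shifts the cause was not tested. No paired analysis was possible because each group has 1 library. At these depths the fewest counts of a member in a library were 82, so differences of about the size of the median were not detectable for the least counted genes.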

Other observations

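Many mitoribosome genes start back to back with another gene. Of the 77 members, 18 (23.4%) have the start of a protein-coding gene on the opposite strand within 1000 bases upstream, against 10.7% of protein-coding genes tested. The partners did not all stand with the member. Mrpl49 (ratio 1.19) starts 59 bases from Fau, a cytosolic ribosomal protein gene with 13120 and 15801 counts and a ratio of 1.255 (1.23 to 1.28). Mrps12 (1.252) starts 172 bases from Sars2, the mitochondrial seryl-tRNA synthetase gene, with 191 and 271 counts and a ratio of 1.48 (1.22 to 1.79). Mrpl51 (1.01), in contrast, starts 100 bases from Ncapd2, a condensin gene, with 807 and 592 counts and a ratio of 0.764 (0.686 to 0.851). Mrpl41 (1.104) starts 935 bases from Pnpla7, with 2313 and 1817 counts and a ratio of 0.819 (0.769 to 0.871). These 4 pairs were chosen after their values were seen.

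Mrpl46 and Mrps11, of different subunits, lie on opposite strands of chromosome 7 and share 173 exonic bases at their starts. Mrpl46 had 283 and 279 counts and Mrps11 226 and 223. Since the strand setting is unknown, counts from the shared bases cannot be assigned to one or the other. Opposite-strand exonic overlap was present in 27 members (35.1%) and in 32.9% of protein-coding genes tested. Of the annotated pseudogenes named after members, 5 in number, the highest was Mrpl23-ps1 with 8 and 18 counts.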
